A study of Mus musculus with 16 samples.

Results

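Mouse embryonic stem (ES) cells of the CCE line were allowed to form embryoid bodies without leukemia inhibitory factor, the cytokine that keeps ES cells undifferentiated, and populations sorted by surface marker were hybridized to Affymetrix Mouse Genome 430 2.0 arrays, which measure each transcript with one or more probe sets. The change in gene expression from day 2.5 to day 6.5 was compared between positive and negative sorts. The positive sorts were cells positive for VEGF-R2 at day 2.5 (HB, which the study calls hemangioblasts) and CD144 positive cells at day 6.5 (ET, which it calls endothelial cells). The negative sorts were cells lacking VEGF-R2 at day 2.5 (NHB) and CD144 negative cells at day 6.5 (NET). All groups came from 1 ES line, the labels name no transgene or drug, and cells were fixed in ethanol and acetic acid before staining and sorting. Each group had 2 arrays from separately conducted experiments, so 8 of the 16 arrays of the series entered the contrast. The interaction is the log2 difference ET minus HB, less the log2 difference NET minus NHB, and it is the same number as the difference between sorts at day 6.5 less that at day 2.5. It was computed for all 45037 probe sets that are not array controls. Of the 18193 genes with a probe set of their own, 1314 (7.22%) had an interaction that passed limma's test at an adjusted p below 0.05, 711 (3.91%) higher and 603 (3.31%) lower. By probe set 2181 (4.84%) passed, and without replicate 1 or replicate 2 of NHB 973 and 964 did. The number of arrays limits the precision. The 90% interval of the interaction lay beyond a 2-fold difference for 560 genes (3.08%) in the higher and 338 (1.86%) in the lower direction. P-values set each interaction against a spread between replicates that was pooled over all 16 arrays and in part shared across probe sets. A higher interaction means that the gene rose more, or fell less, between the positive sorts than between the negative sorts.

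CD144, or VE-cadherin, is the adhesion protein of endothelial cell junctions, and VEGF-R2 is the receptor through which VEGF-A drives the formation of endothelium from mesoderm. In the embryo and in embryoid bodies, mesoderm leaves the primitive streak, becomes VEGF-R2 positive, and gives rise to endothelium, blood and heart muscle, while streak genes are shut off. Cells without the marker follow other fates, remain undifferentiated, or turn on the marker later. A negative sort is therefore a changing population, and a difference of changes can be made by the positive sorts, by the negative sorts or by both. The markers of the 2 days differ, so each change compares 2 populations of cells and does not follow the same cells. In RNA from sorted pools, fewer cells of a type and less RNA per cell cannot be told apart.

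The transcript of each sorting marker followed its label. Kdr, which encodes VEGF-R2, had signals of 5475 and 6297 in HB, 2088 and 2077 in NHB, 4803 and 5115 in ET, and 352 and 427 in NET. Its signal did not differ beyond the spread between HB and ET (log2 change -0.24, adjusted p = 0.62 in limma) and it fell by 2.41 on the log2 scale from NHB to NET, an interaction of 2.16 (SE 0.38, adjusted p = 0.00248) that did not pass with a robust prior. Cdh5, which encodes CD144, had signals of 643 and 839 in HB, 3166 and 2219 in ET, 110 and 100 in NHB, and 31.0 and 37.2 in NET. It rose in the positive sorts and fell in the negative sorts. With 1 of its 2 probe sets called, its interaction was 3.31 (SE 0.49, adjusted p = 0.000628). Because its protein was sorted for at day 6.5, this value checks the labels. The arrays of positive and negative cells formed 2 sets. Control transcripts added at hybridization had a geometric mean signal of 6481 to 11175 on positive arrays and 2134 to 3022 on negative arrays, and replicate arrays correlated at a Spearman coefficient of 0.876 to 0.895 in HB and ET and of 0.945 to 0.955 in NET and NHB. The 99th percentile of the signals was 14004 to 16760 on positive and 11448 to 13207 on negative arrays. A constant offset between the sets cancels in the interaction, but a difference in scale does not. Quantile normalization gave 1024 higher and 1011 lower probe sets, in place of 1259 and 922. The median interaction of the 18 control probe sets was -0.24 on the log2 scale, between -0.59 and 0.22. The part of these array differences in single results was not tested.

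The bright genes that stayed called without any single array, and had the largest interactions, were led by vascular genes on one side and streak and heart genes on the other. Higher were Thsd1, Sox18, Crabp2, Depp1, Cd34, Alox5ap, Tie1 and Igf1, and lower were Mixl1, Lhx1, Cer1, Mesp1, Eomes, Myl7, Cyp26a1 and Fgf3. Thsd1, a thrombospondin-domain protein of endothelium, had signals of 186 and 239 in HB, 871 and 648 in ET, 300.4 and 292 in NHB, and 13.4 and 7.76 in NET. Its HB arrays lay below those of NHB and its ET arrays far above those of NET, and both of its probe sets were called, with an interaction of 6.01 (SE 0.61, adjusted p = 1.68e-05). Depp1, a target of FOXO factors, rose only in the positive sorts at the threshold, from 31.4 and 88.5 to 2425 and 2858, while NHB (50.1 and 28.1) and NET (41.8 and 38.0) overlapped. Fgf3, a fibroblast growth factor of the streak, was at 2755 and 2398 in HB, 102 and 82.5 in ET, 263 and 256 in NHB, and 242 and 294 in NET. HB alone stood above the other groups, and the interaction was -4.76 (SE 0.30, adjusted p = 6.67e-08).

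Among genes with a higher interaction, the positive sorts alone passed most often. Of the 711, 376 (52.9%) rose from HB to ET without passing the test in the negative sorts, 109 (15.3%) rose in the positive and fell in the negative sorts, and 158 (22.2%) fell from NHB to NET alone. Their median change was 1.26 in the positive and -0.61 in the negative sorts on the log2 scale, and the negative change was the larger in 231. Among the 603 genes with a lower interaction, 279 (46.3%) fell from HB to ET alone, 194 (32.2%) rose from NHB to NET alone, and 81 (13.4%) fell in the positive and rose in the negative sorts. Over all 18193 genes the median change was 0.10 in each pair of sorts and the median interaction was -0.01. These shares describe changes that use the same arrays as the interaction and are not separate evidence. The fit gives both changes the same standard error. The median standard deviation between replicates on the log2 scale was 0.30 in HB and 0.29 in ET, against 0.15 in NHB and 0.26 in NET. Pooling makes the test more lenient in the positive and stricter in the negative sorts, and its part in these shares was not tested. In the components, 12.8% of all genes rose and 8.87% fell from HB to ET, and 8.2% rose and 5.44% fell from NHB to NET. Called interactions ran from -7.79 for Mixl1 to 7.57 for Fcer1g.

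**Figure D1:**
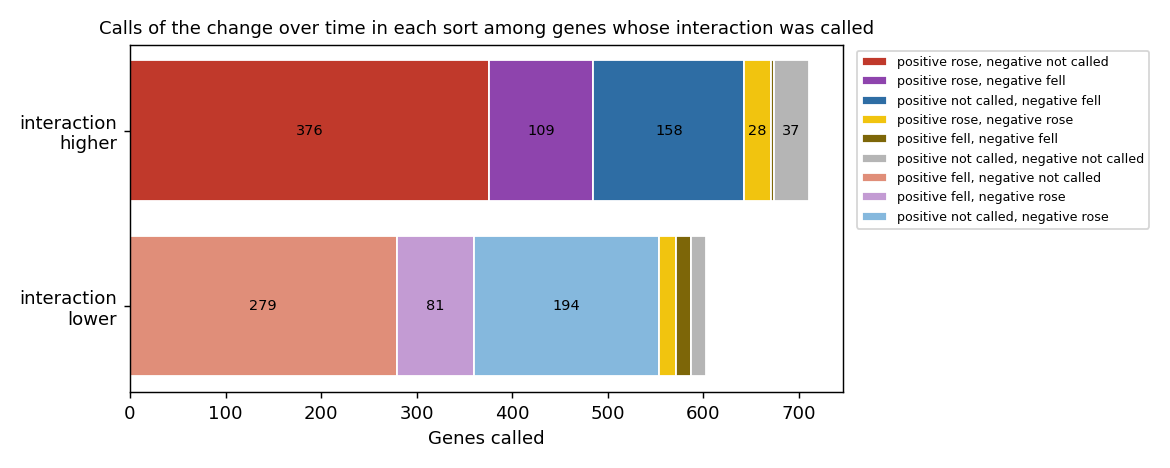
Number of genes with a called interaction (x axis), split by whether each change over time was called as a rise, a fall or neither; the upper bar holds the 711 genes with a higher and the lower bar the 603 with a lower interaction. In 376 genes of the upper bar only the positive sorts passed, and in 194 genes of the lower bar only the negative sorts did.

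**Figure D2:**
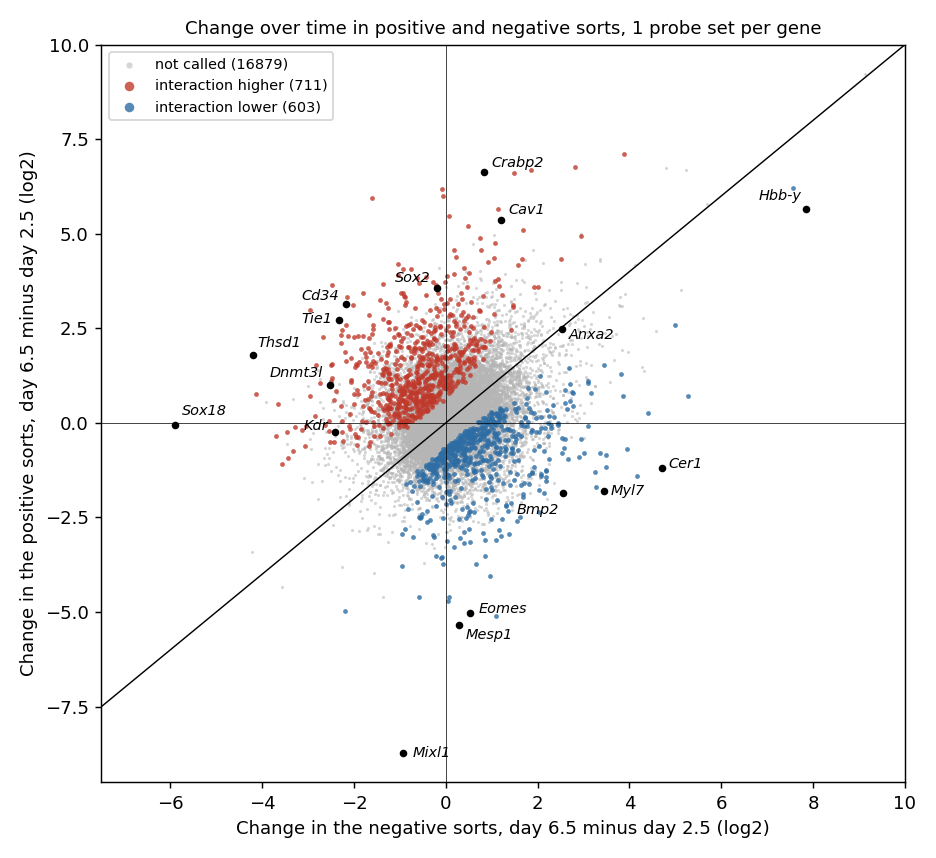
Log2 change from day 2.5 to day 6.5 in the positive sorts (y axis) against that in the negative sorts (x axis) for 18193 genes, each a point; the diagonal marks equal change and colors mark called interactions. Sox18 lies far to the left at no change in the positive sorts, Mixl1 far below at a small change in the negative sorts, and Anxa2 on the diagonal.

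Most endothelial surface genes had a higher interaction. Of 40 genes of the endothelial surface and junctions, 27 had a higher interaction, beside 3.91% of all genes, 1 a lower one, and 12 did not pass the test. The median interaction of the list was 2.59, with a median change of 1.5 in the positive and -0.93 in the negative sorts. From HB to ET 25 of the 40 rose, and from NHB to NET 19 fell, beside 12.8% and 5.44% of all genes. At day 2.5, 24 of the 40 were already higher in VEGF-R2 positive than in VEGF-R2 negative cells, beside 16% of all genes, and at day 6.5, 38 were higher in CD144 positive than in CD144 negative cells, beside 13.4%. The summed signal of the list was 57727 and 73138 in HB, 108451 and 112582 in ET, 15627 and 15267 in NHB, and 12016 and 17330 in NET. The highest sums were those of ET, and the sums of NHB and NET overlapped. Several members were chosen by the study on these arrays (Tie1, Pecam1, Cldn5, Robo4, Icam2, Cdh5, Mmrn2, Cd34, Emcn, Ednrb and Cd109), so their directions are not independent evidence.

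The promoters of 4 members are printed. They are the named genes of the list with the largest higher interactions among those with a promoter sequence at hand. All 4 also rose from HB to ET, and for Myct1 1 of 4 probe sets was called. Ets factors, among them Erg and Fli1, are known to act on endothelial promoters. Each window runs from 250 bases before to 50 after the start of the gene, 5′ to 3′ on the strand of the gene, from RefSeq with the build GRCm38.p6. Capitals mark matches on either strand. The motifs searched for Ets factors were CAGGAAG and a second form that differs from it in its second letter, CCGGAAG. For SOX factors the letters searched were ACAAAG. For GATA factors, which act in blood and endothelium, they were AGATAA. For forkhead factors, which act with Ets factors on vascular genes, they were TAAACA. The Ets motifs cannot match at the same bases, while the SOX, GATA and forkhead letters can share bases. The windows are chr1:194938571-194938870 on the plus strand for Cd34, chr3:137340828-137341127 on the plus strand for Emcn, chr10:5593478-5593777 on the plus strand for Myct1 and chr4:118489800-118490099 on the minus strand for Tie1.
Cd34: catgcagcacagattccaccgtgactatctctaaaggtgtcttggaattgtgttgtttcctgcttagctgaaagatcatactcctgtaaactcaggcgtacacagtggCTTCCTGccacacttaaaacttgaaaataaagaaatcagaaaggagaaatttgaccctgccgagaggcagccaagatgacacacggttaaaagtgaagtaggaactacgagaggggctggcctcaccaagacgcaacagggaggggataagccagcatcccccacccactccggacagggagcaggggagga
Emcn: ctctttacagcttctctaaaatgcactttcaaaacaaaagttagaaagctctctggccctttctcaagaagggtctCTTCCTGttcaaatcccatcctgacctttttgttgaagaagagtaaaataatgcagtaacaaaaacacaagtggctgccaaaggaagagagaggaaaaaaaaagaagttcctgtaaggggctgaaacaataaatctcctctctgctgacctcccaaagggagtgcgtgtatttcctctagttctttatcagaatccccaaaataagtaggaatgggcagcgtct
Myct1: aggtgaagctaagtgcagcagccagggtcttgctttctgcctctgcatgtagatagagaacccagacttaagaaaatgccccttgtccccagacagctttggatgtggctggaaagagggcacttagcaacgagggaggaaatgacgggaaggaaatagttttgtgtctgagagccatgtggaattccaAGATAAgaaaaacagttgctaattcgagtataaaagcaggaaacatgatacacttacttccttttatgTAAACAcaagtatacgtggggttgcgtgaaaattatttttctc
Tie1: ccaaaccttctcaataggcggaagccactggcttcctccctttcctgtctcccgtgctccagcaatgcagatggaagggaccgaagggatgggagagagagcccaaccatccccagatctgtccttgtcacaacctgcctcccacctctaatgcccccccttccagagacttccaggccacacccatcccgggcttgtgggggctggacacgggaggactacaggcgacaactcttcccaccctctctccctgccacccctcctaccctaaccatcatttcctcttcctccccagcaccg
Cd34 and Emcn each had 1 match to CAGGAAG on the opposite strand, Myct1 had a GATA and a forkhead match, and Tie1 had none. Of the 27 endothelial genes with a higher interaction, 16 had a window in the table, 18 windows in all, and 9 of these (50%) held CAGGAAG, beside 12.9% of the 18110 windows of all genes tested. CCGGAAG was in none of the 18, beside 13% of all windows, and the SOX letters were in 16.7%, beside 15.9%. The GATA letters were in 11.1%, beside 8.09%, and the forkhead letters in 5.56%, beside 10.4%. Among all 711 genes with a higher interaction CAGGAAG was in 12.9% of windows. A match is a description of the letters and not a bound site.

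Cd34, a sialomucin of endothelial and blood progenitor cells, had signals of 454 and 648 in HB, 5087 and 4685 in ET, 371 and 406 in NHB, and 71.3 and 91.7 in NET. The groups did not overlap at day 6.5, where ET was highest and NET lowest of the 4. Its interaction was 5.34 (SE 0.34, adjusted p = 9.79e-08), from a rise of 3.16 in the positive sorts and a change of -2.18 in the negative sorts. Tie1, an orphan receptor tyrosine kinase of endothelium, had signals of 399 and 596 in HB, 3677 and 2914 in ET, 73.6 and 67.3 in NHB, and 6.98 and 12.04 in NET. Both day 6.5 CD144 negative values were near the bottom of the scale, where the size of a fold depends on the constant added before the logarithm. Its interaction was 5.05 (SE 0.48, adjusted p = 7.96e-06). Pecam1, the junction protein CD31, differed little between sorts at day 2.5, with signals of 308 and 279 in HB and 270 and 273 in NHB. At day 6.5 it was 2413 and 1951 in ET and 67.2 and 97.3 in NET, an interaction of 4.53 (SE 0.38, adjusted p = 2.32e-06). In all 3 genes both the rise and the fall passed the test.

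Other members of the list differed in how much each sort contributed. Emcn, which encodes the sialomucin endomucin, rose by 3.66 in the positive sorts while its change in the negative sorts was -0.22, and its call was lost in 5 of 18 alternative analyses. Cd93, a C-type lectin of endothelium and myeloid cells, rose by 3.80, and its change of 1.15 in the negative sorts did not pass (adjusted p = 0.0803). Rasip1, which controls vascular lumen formation, and Egfl7, a secreted factor of endothelium, showed the other pattern, with changes of -0.07 and 0.01 in the positive sorts and falls in the negative sorts of 2.64 and 0.97. Cd93, Rasip1 and Egfl7 were chosen after their values were seen. Ramp2, Flt1, Vwf and Cgnl1 were among the 12 members whose interaction did not pass. The exception in direction was Aplnr, the apelin receptor of mesodermal progenitors and veins. It had signals of 15057 and 17406 in HB, 7628 and 8989 in ET, 1531 and 1617 in NHB, and 5635 and 10104 in NET, so that the ET and NET values overlapped. Its interaction was -3.22 (SE 0.40, adjusted p = 0.000126), from a fall in the positive and a rise in the negative sorts, and both of its probe sets were called lower.

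Of 28 endothelial transcription factors, 13 had a higher interaction and 15 did not pass, beside 3.91% of all genes, with a median interaction of 1.14. Without the first CD144 positive array of day 6.5, 8 were called higher, and with a robust prior also 8. Sox18, a SOX factor of blood and lymph vessels, gave the largest interaction of the list without any rise in the positive sorts. Its signals were 2340 and 2182 in HB and 2295 and 2063 in ET, and 2460 and 2612 in NHB against 72.6 and 17.3 in NET. At day 2.5 it was thus as high in VEGF-R2 negative as in VEGF-R2 positive cells (difference -0.17, SE 0.38, adjusted p = 0.8), and its interaction of 5.84 (SE 0.54, adjusted p = 6.54e-06) came from a fall by 5.89 on the log2 scale in the negative sorts. By the study's own measure, the ratio ET over HB minus the ratio NET over NHB on the linear scale, Sox18 had a value of 0.946. The ratios here are of MAS5 signal means, not of the study's dChip signals, and no lower bound was applied. That measure was above 2 in 308 of the 711 genes with a higher interaction, and a fall in the negative sorts, however deep, can raise it by no more than 1.

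Erg, an Ets factor that maintains endothelial identity, rose by 1.55 in the positive sorts and fell by 2.48 on the log2 scale in the negative sorts. Its signals were 596 and 742 in HB, 1652 and 2308 in ET, 98.9 and 91.1 in NHB, and 8.38 and 16.6 in NET, an interaction of 4.03 (SE 0.53, adjusted p = 0.000202). Of the 2 Erg probe sets 1 was called. Klf2, a factor induced by blood flow, started lower in VEGF-R2 positive cells (322 and 403) than in VEGF-R2 negative cells (2099 and 2056). By day 6.5 the order had turned, with 2132 and 1548 in ET and 1101 and 951 in NET, and the interaction was 3.33 (SE 0.24, adjusted p = 2.4e-07). Epas1, the hypoxia-inducible factor HIF-2 alpha, had an interaction of 4.45 (adjusted p = 0.000653), with 1 of its 2 probe sets called. Its HB arrays were 200 and 654, against 6017 and 4472 in ET. In 2 members of the list both changes were falls. Etv2, the Ets factor that specifies blood and endothelium, fell by 4.34 on the log2 scale in the positive and by 3.57 in the negative sorts (interaction -0.77, adjusted p = 0.105), and Lmo2 fell by 2.00 and 2.79 (interaction 0.79, adjusted p = 0.127). Etv2 and Lmo2 were chosen after their values were seen.

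**Figure D3:**
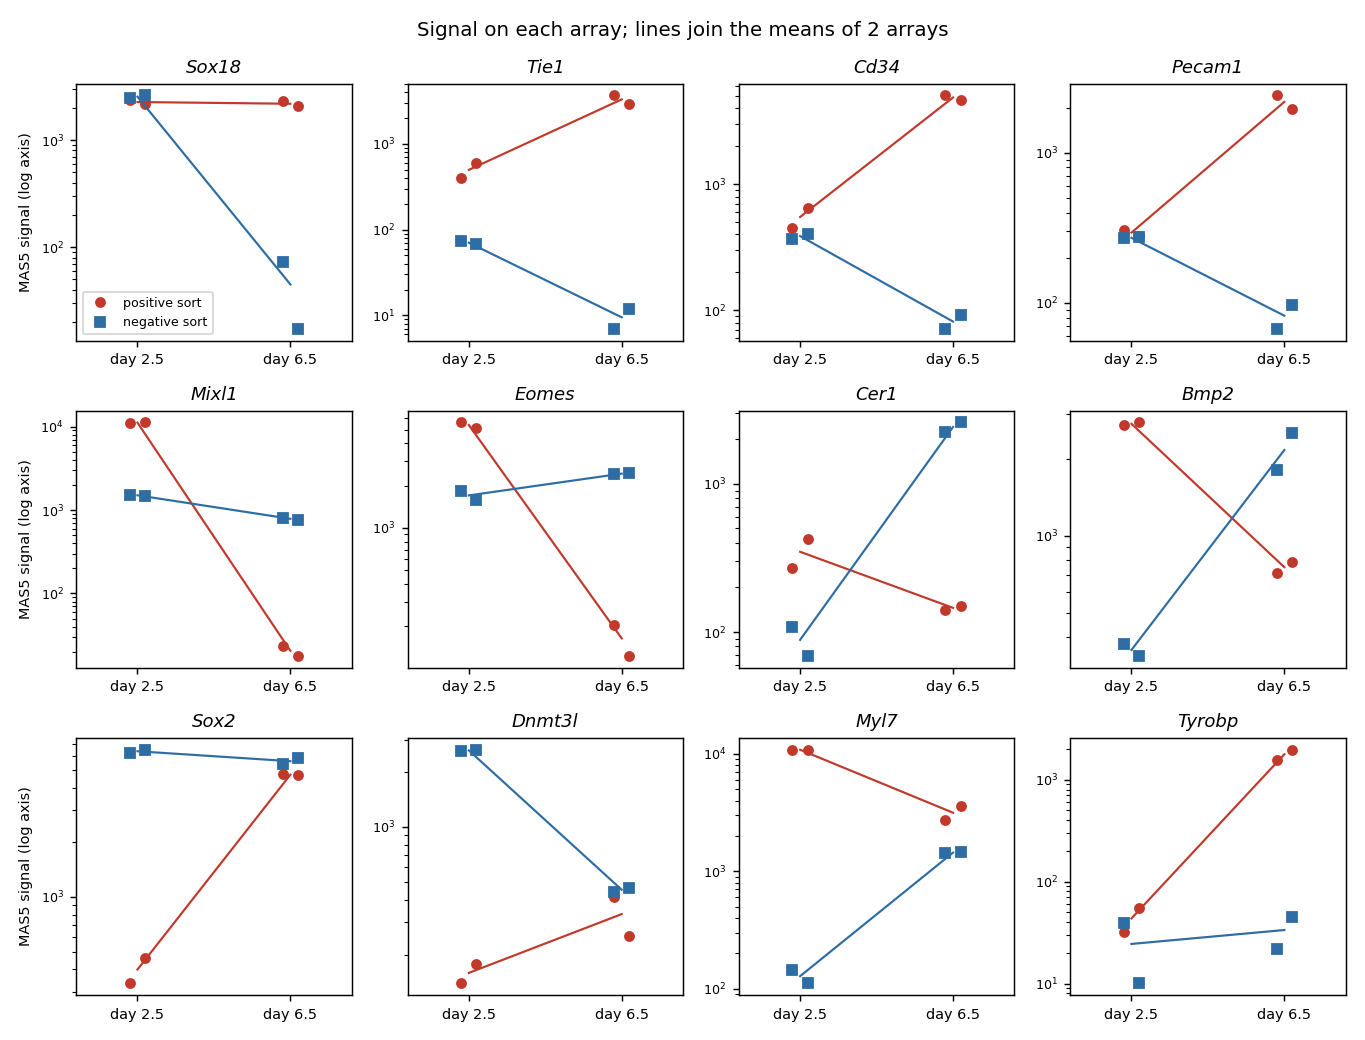
MAS5 signal on each of the 8 arrays (log y axis) for 12 genes at day 2.5 and day 6.5, with the 2 arrays of a group side by side; red circles are positive sorts, blue squares negative sorts, and lines join the means of 2 arrays. Lines part from a common start for Cd34 and Pecam1, cross for Cer1 and Bmp2, and come close for Sox2 and Dnmt3l.

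Genes of the endothelial surroundings were mixed. Of 13 genes of caveolae and lipid uptake, 3 had a higher and 2 a lower interaction, beside 3.91% and 3.31% of all genes. Without replicate 1 of ET or replicate 2 of NHB, 1 lower call was left. Cav1, the coat protein of caveolae, rose in both sorts and more in the positive, from 81.4 and 126 in HB to 4362 and 4465 in ET, and from 118 and 93.8 in NHB to 213 and 298 in NET, with an interaction of 4.15 (SE 0.47, adjusted p = 4.7e-05). Its partner Cav2, a gene of the study, was at 2.83 but did not pass (SE 1.05, adjusted p = 0.152). Anxa2, another gene that the study listed for the CD144 positive cells of day 6.5, rose by 2.47 from HB to ET and by 2.53 from NHB to NET, an interaction of -0.05 (SE 0.24, adjusted p = 0.945). Of 24 angiogenic ligands and guidance receptors, 3 were higher and 3 lower (1 without replicate 1 of NHB), beside the same shares of all genes. Edn1, the vasoconstrictor endothelin, was at 4.42 (SE 0.71, adjusted p = 0.00127), and Plxnd1, a semaphorin receptor of vessels, at 2.68. Of 19 Notch genes 2 were higher and 2 lower, beside the same shares, with 1 lower without replicate 1 of HB, replicate 2 of ET or replicate 1 of NHB. Mfng, a glycosyltransferase that modifies Notch, had an interaction of 3.41 (SE 0.39, adjusted p = 4.45e-05).

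The 20 genes that the study named for CD144 positive cells of day 6.5 were divided by this contrast. Those called higher were the 9 endothelial surface genes given above with Klf2 and Mef2c, whose call was lost in 7 of 18 alternative analyses. The interactions of Cav2, Tfec, Ednrb, Efna1, Cd109, Sox11, Anxa2, Nr2f2 and Sox17 did not pass. The study used dChip signals, a lower bound on the fold and partly other comparisons, so its lists were not tested here. At day 6.5 alone, Cav2 (3.54), Ednrb (3.25), Efna1 (3.02), Cd109 (1.19) and Anxa2 (1.13) were higher in ET than in NET on the log2 scale (limma, adjusted p below 0.05). Sox11 was lower (-1.09), and Tfec, Nr2f2 and Sox17 did not pass in that comparison. Ednrb, the endothelin B receptor, rose in both sorts, by 5.01 and 2.95, and its HB arrays of 11.8 and 125 lay far apart (interaction 2.06, SE 0.96, adjusted p = 0.277). Sox17, a factor shared by arterial endothelium and definitive endoderm, also rose in both, from 681 and 842 in HB to 2307 and 2110 in ET and from 340 and 328 in NHB to 2212 and 3010 in NET. The day 6.5 values overlapped, and the interaction was -1.39 (SE 0.40, adjusted p = 0.0542). Probe sets of Cd109 and Nr2f2 disagreed, and by its most variable probe set Nr2f2 was at 2.37 in place of -0.56.

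Primitive streak and early mesoderm genes gave the mirror image. Of 30 genes, 19 had a lower interaction, beside 3.31% of all genes, and 1, Apela, a higher one that was lost in 9 of 18 alternatives. The median interaction was -2.60, with a median change of -1.24 in the positive and 0.47 in the negative sorts. From HB to ET 18 fell, and from NHB to NET 10 rose, beside 8.87% and 8.2% of all genes. The summed signal of the list was 63905 and 55201 in HB and 10207 and 10611 in ET, against 27078 and 27446 in NHB and 39604 and 41491 in NET. The sums of the 4 groups did not overlap, and the list was highest in HB and lowest in ET. At day 2.5, 16 members were higher in the VEGF-R2 positive sort, beside 16% of all genes. At day 6.5, 16 were lower in the CD144 positive sort, beside 11.9% of all genes.

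Mixl1, a homeobox gene of the streak, had the largest interaction of any called gene in either direction. Its signals were 11079 and 11204 in HB, 23.3 and 17.8 in ET, 1526 and 1477 in NHB, and 803 and 767 in NET. It fell in both sorts, by 8.72 on the log2 scale in the positive and by 0.93 in the negative, an interaction of -7.79 (SE 0.30, adjusted p = 3.88e-10). Eomes, a T-box factor of the streak and endoderm, had signals of 5611 and 5157 in HB, 205 and 123 in ET, 1837 and 1566 in NHB, and 2409 and 2451 in NET. Its order between sorts turned over time, with an interaction of -5.54 (SE 0.38, adjusted p = 1.79e-07). Mesp1, a factor of cardiac and vascular mesoderm, was at 5677 and 5168 in HB and at 89.8 and 178 in ET, while the values of NHB (485 and 321) and NET (489 and 473) overlapped. Its interaction was -5.63 (SE 0.37, adjusted p = 1.2e-07). Lhx1, Evx1, Gsc, Lefty2 and Tdgf1 fell in the positive sorts as well, with interactions between -6.21 and -3.46, and the last 4 of these were chosen after their values were seen.

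In other members the rise in the negative sorts carried the difference. Cer1, a secreted inhibitor of Nodal and BMP made by endoderm, was at 271 and 425 in HB, 140 and 151 in ET, 108 and 68.9 in NHB, and 2240 and 2595 in NET. NET was far above the other 3 groups, and the interaction was -5.90 (SE 0.35, adjusted p = 4.64e-08). Foxa2, a forkhead factor of endoderm and node, was at 127 and 177 in HB, 280 and 222 in ET, 146 and 105 in NHB, and 1673 and 2096 in NET, an interaction of -3.14 (SE 0.32, adjusted p = 1.8e-05). Dkk1, a secreted Wnt inhibitor, Cfc1, a Nodal coreceptor, and Rspo3, a Wnt agonist, rose from NHB to NET by 3.002, 3.09 and 2.60. From HB to ET Dkk1 fell by 0.80 on the log2 scale, and Cfc1 and Rspo3 were at -0.08 and -0.43 without passing. These 3 genes were chosen after their values were seen. Of the 30 genes of endoderm and yolk sac endoderm, 19 rose in the positive and 15 in the negative sorts, beside 12.8% and 8.2% of all genes. A lower interaction was found in 4 (Foxa2, Gata4, Gata6 and Krt8), beside 3.31% of all genes. The 1 higher, Fgb, was near the share of 3.91% over all genes. Signals of Fgb were at most 20.2 outside ET, and its call was lost without replicate 2 of NHB. The summed signal of that list was 57607 and 66768 in ET and 63122 and 66948 in NET.

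**Figure D4:**
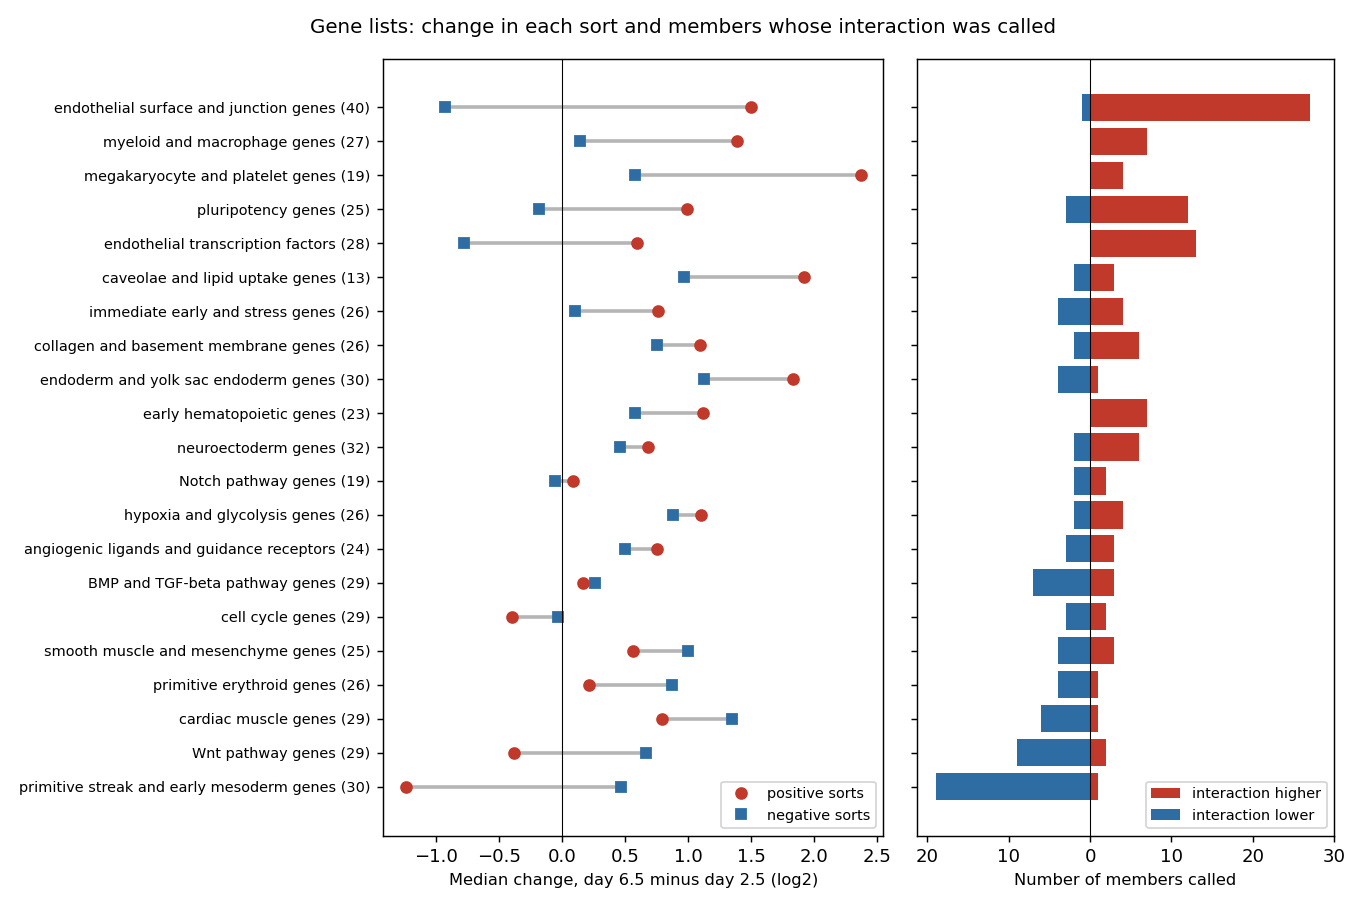
Left, median log2 change of each gene list from day 2.5 to day 6.5 in the positive (circles) and negative (squares) sorts, with the number of genes measured in brackets; right, number of members with a called interaction, lower to the left of 0 and higher to the right. Endothelial surface genes have 27 members called higher and primitive streak genes 19 called lower.

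Of 29 Wnt pathway genes 9 had a lower and 2 a higher interaction, beside 3.31% and 3.91% of all genes, with a median of -0.98, and 4 were called lower with a robust prior, or when each gene was shown by its most variable probe set. Without replicate 1 of HB, replicate 1 of ET, either NHB array or replicate 2 of NET, 5 were called lower, and 1 was called higher without any single array other than replicate 1 of HB. Sp5, a direct Wnt target, had signals of 2471 and 2113 in HB, 158 and 174 in ET, 415 and 456 in NHB, and 640 and 748 in NET, an interaction of -4.40 (SE 0.32, adjusted p = 2.98e-07). Frzb, a secreted Wnt antagonist, fell by 1.87 on the log2 scale in the positive sorts and rose by 1.68 in the negative sorts. Of 29 BMP and TGF-beta genes 7 were lower and 3 higher, beside the same shares of all genes, with 4 lower without replicate 2 of NHB or with a robust prior and 1 higher without replicate 1 of HB, either NHB array or replicate 2 of NET. Bmp2 was at 2710 and 2775 in HB, 713 and 792 in ET, 376 and 338 in NHB, and 1804 and 2527 in NET. No groups overlapped, the order between sorts turned over time, and the interaction was -4.42 (SE 0.23, adjusted p = 1.12e-08). Bmp4, Bmp7, Tgfb2 and the BMP-binding Bmper had lower interactions too, whereas Id2, an inhibitor of basic helix-loop-helix factors and a BMP target, was higher at 2.70 (SE 0.42, adjusted p = 0.00086). Cyp26a1, which degrades retinoic acid, fell from 12019 and 13747 in HB to 714 and 834 in ET and rose from 2095 and 2084 in NHB to 4043 and 4111 in NET. Crabp2, a carrier of retinoic acid, went the other way, from 14.6 and 12.7 in HB to 1774 and 2110 in ET, beside 207 and 208 in NHB and 387 and 362 in NET, an interaction of 5.79 (SE 0.61, adjusted p = 2.46e-05).

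Of 29 cardiac genes 6 had a lower and 1 a higher interaction, beside 3.31% and 3.91% of all genes. From NHB to NET 14 rose and from HB to ET 9, beside 8.2% and 12.8%. The lower calls were 3 without replicate 2 of HB, replicate 1 of ET, either NHB array or replicate 2 of NET. Myl7, the atrial myosin light chain, was at 10854 and 10815 in HB, 2729 and 3570 in ET, 144 and 111 in NHB, and 1429 and 1451 in NET. The positive sorts were above the negative ones at both days, but the gap closed from 6.35 to 1.11 on the log2 scale, an interaction of -5.24 (SE 0.26, adjusted p = 6.54e-09). Gata4 and Gata6, zinc finger factors of heart and endoderm, had interactions of -2.49 and -2.24. Myh6, the alpha myosin heavy chain, was the exception at 2.93 (SE 0.51, adjusted p = 0.0023), with 1 of its 2 probe sets called. Of 25 smooth muscle and mesenchyme genes Acta2, Myl9 and Postn were higher and Twist1, Cdh11, Rgs5 and Cdh2 lower, beside 3.91% and 3.31% of all genes. Twist1 lost its call in 10 of 18 alternative analyses and Postn in 4 of 17. Of 26 collagen and basement membrane genes 6 were higher and 2 lower, beside 3.91% and 3.31% of all genes. Without any single array fewer were called higher. Without any single array other than replicate 2 of HB, the lower calls were near the share over all genes. Col18a1 was at 3.28 and the matricellular gene Sparcl1 at 6.27 (SE 1.19, adjusted p = 0.00451). HB signals of Sparcl1 were 5.40 and 5.14, near the bottom of the scale, so the size of this fold is uncertain.

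Of 25 pluripotency genes 12 had a higher and 3 a lower interaction, beside 3.91% and 3.31% of all genes, with a median of 1.59. At day 2.5, 19 of the 25 were lower in VEGF-R2 positive than in VEGF-R2 negative cells, beside 13.7% of all genes, and at day 6.5, 11 were lower in CD144 positive than in CD144 negative cells, beside 11.9%. From HB to ET 12 rose and 6 fell, beside 12.8% and 8.87% of all genes, and from NHB to NET 8 fell and 2 rose, beside 5.44% and 8.2%. The summed signal was 48279 and 47548 in HB, 46755 and 48614 in ET, 123187 and 124089 in NHB, and 82432 and 93905 in NET. The sums of HB and ET overlapped and lay below those of both negative sorts, so the higher interaction did not put the list above the CD144 negative cells.

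Sox2, a factor of ES cells and neural progenitors, was at 335 and 461 in HB, 4746 and 4694 in ET, 6226 and 6487 in NHB, and 5375 and 5830 in NET. It rose in the positive sorts to within 0.25 of the CD144 negative level on the log2 scale (adjusted p = 0.64), an interaction of 3.75 (SE 0.43, adjusted p = 4.72e-05). Dnmt3l, a cofactor of DNA methylation, was at 140 and 178 in HB, 413 and 253 in ET, 2595 and 2643 in NHB, and 442 and 464 in NET, so that mainly the fall in the negative sorts closed the gap (interaction 3.53, SE 0.34, adjusted p = 8.27e-06). Gdf3, a TGF-beta ligand of ES cells, was at 169 and 160 in HB, 618 and 378 in ET, 1763 and 1727 in NHB, and 504 and 404 in NET. Its ET and NET values overlapped. Pou5f1, the core factor Oct4, had an interaction of -0.16 (SE 0.62, adjusted p = 0.936), and Nanog one of 1.10 (SE 0.34, adjusted p = 0.0773), and both were chosen after their values were seen. Tbx3 went against the list at -2.94 (SE 0.37, adjusted p = 0.000132), and 2 of its 5 probe sets were called, both lower. Of 32 neuroectoderm genes 6 were higher and 2 lower, beside 3.91% and 3.31% of all genes. Pax6, an eye and forebrain factor, was at 88.2 and 26.0 in HB, 853 and 731 in ET, 77.6 and 117 in NHB, and 74.9 and 62.8 in NET, an interaction of 4.30 (SE 0.70, adjusted p = 0.00141). ET was the highest of the 4 groups, and 2 of the 5 Pax6 probe sets were called, both higher. Without either VEGF-R2 negative array, 3 neuroectoderm genes were called higher and at most 1 lower, the lower calls being no more than about the share over all genes.

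**Figure D5:**
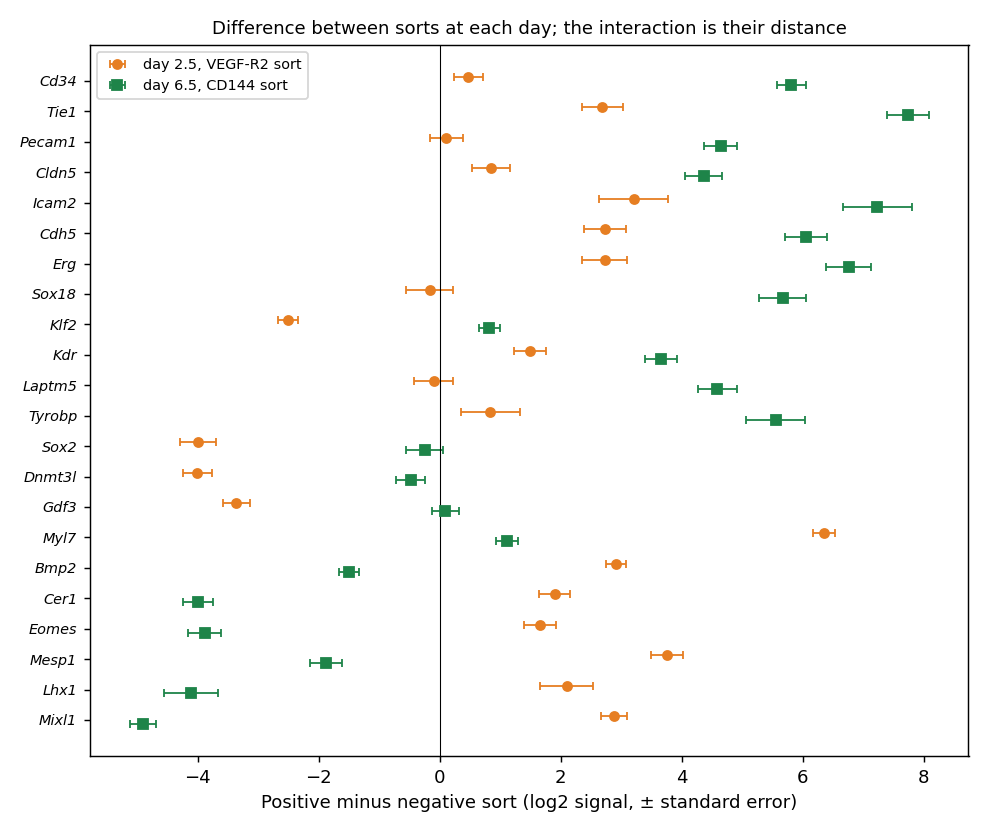
Log2 difference between positive and negative sort (x axis, ± standard error of the limma fit) at day 2.5 (orange circles) and day 6.5 (green squares) for 22 genes; the interaction is the distance from circle to square. Endothelial genes at the top move right, the pluripotency genes Sox2, Dnmt3l and Gdf3 move from below 0 toward 0, and streak genes at the bottom move from right to left of 0.

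Higher interactions were found in 7 of 23 early hematopoietic, 4 of 19 megakaryocyte and platelet, and 7 of 27 myeloid genes, beside 3.91% of all genes, and the other members did not pass. The summed myeloid signal was 2624 and 3007 in HB, 10873 and 12002 in ET, 3065 and 2988 in NHB, and 2130 and 2174 in NET, so ET alone stood apart. For the early hematopoietic list the sums were 26122 and 24075 in ET and between 5355 and 6319 in the other groups, and for the megakaryocyte list 42498 and 47315 in ET and between 7160 and 16808 in the others. Among the defining markers of macrophages, the complement genes C1qa and C1qc were below 10 in all 8 arrays, Csf1r was at 269 and 326 in ET against 160.5 and 163 in NET, and Adgre1 (F4/80) had an interaction of -0.43 (adjusted p = 0.86). Ptprc, which encodes the leukocyte antigen CD45, was at 342 and 166 in ET and 21.8 and 19.5 in NET, with an interaction of 2.04 that did not pass (SE 1.05, adjusted p = 0.334). Csf1r, C1qa, C1qc, Adgre1 and Ptprc were chosen after their values were seen. The part of blood cells in the endothelial results was not tested.

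Tyrobp, a signaling adaptor of myeloid and natural killer cells, was at 31.7 and 55.4 in HB, 1577 and 1971 in ET, 38.8 and 10.1 in NHB, and 21.7 and 45.3 in NET. Only ET stood apart from the other groups, and the interaction was 4.71 (SE 0.68, adjusted p = 0.000501). Fcer1g, an adaptor that pairs with Fc receptors, was at 11.5 and 4.22 in HB, 722 and 943 in ET, 35.4 and 28.1 in NHB, and 4.29 and 8.63 in NET. Its interaction of 7.57 (SE 1.03, adjusted p = 0.000298) rests on values near the bottom of the scale in 3 groups and ranged from 4.76 to 8.86 over the alternatives. Alox5ap, which activates 5-lipoxygenase in leukocytes, was at 330 and 552 in HB, 7184 and 8778 in ET, 303 and 279 in NHB, and 135 and 143 in NET (interaction 5.23, SE 0.29, adjusted p = 1.58e-08). Plek, a platelet and leukocyte protein, was at 75.7 and 68.3 in HB, 3847 and 3977 in ET, 34.4 and 31.98 in NHB, and 76.2 and 83.5 in NET. Clec1b, the platelet receptor CLEC-2, was at 4.83 (SE 0.81, adjusted p = 0.00179). Laptm5, a lysosomal protein of leukocytes, was at 4.69 (SE 0.46, adjusted p = 1.04e-05), with 3 of its 5 probe sets called. Igf1, a growth factor, was at 5.03 (SE 0.48, adjusted p = 7.84e-06) with all 4 of its probe sets called higher.

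Of 26 primitive erythroid genes 4 had a lower (2 without replicate 1 of NHB or replicate 2 of NET) and 1 a higher interaction, beside 3.31% and 3.91% of all genes, so the higher call and the lower calls left without those arrays were near the share over all genes. From NHB to NET 12 rose, beside 8.2% of all genes, and from HB to ET 8 rose, beside 12.8%. Hbb-y, an embryonic beta-like globin, was at 37.9 and 75.4 in HB, 2670 and 3321 in ET, 14.4 and 26.7 in NHB, and 4852 and 7293 in NET. It rose in both sorts, and its interaction of -2.20 (SE 0.58, adjusted p = 0.0364) lost its call in 11 of 18 alternatives. Hba-x, the embryonic alpha-like globin, rose by 9.22 and 9.14 (interaction 0.08, SE 0.40, adjusted p = 0.952), a gene chosen after its values were seen. Slc4a1, the anion exchanger of the red cell membrane, was at 210 and 300 in NET and at 82.5 and 60.8 in ET (interaction -4.15, SE 0.89, adjusted p = 0.011), with 1 of 3 probe sets called. The values of HB and ET overlapped, while those of NHB and NET did not. The interaction ranged from -5.08 to -2.12 over the alternatives, and the call was lost in some of them. Car2, carbonic anhydrase, fell from 16234 and 18073 in HB to 5242 and 4409 in ET while NHB and NET overlapped, an interaction of -1.84 (SE 0.20, adjusted p = 3.71e-05).

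Hypoxia and glycolysis genes mostly rose in both sorts. Of 26 genes 18 rose in the positive and 18 in the negative sorts, beside 12.8% and 8.2% of all genes. A higher interaction was found in 4 and a lower one in 2, beside 3.91% and 3.31%, among them Pdk1 at 1.74 and Egln3 at -1.20. Without either NHB array 1 was called higher and 1 lower, near the shares over all genes. Of 29 cell cycle genes 12 fell from HB to ET and 3 from NHB to NET, beside 8.87% and 5.44% of all genes. By interaction 3 were lower (Cdc6, Rrm2 and Mcm7), beside 3.31%. The 2 higher, beside 3.91%, were the inhibitors Cdkn1a and Cdkn1c at 1.55 and 1.57. The lower calls of this list ranged from 0, without replicate 1 of NHB or with a robust prior, to 4 when an array was left out. Of 26 immediate early and stress genes 4 were higher and 4 lower, beside the same shares of all genes, with Gadd45a at 3.19 and Egr3 at -3.99. The lower calls were 2 without replicate 2 of HB, replicate 1 of ET, either NHB array or replicate 2 of NET.

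Whether the CD144 sort difference of day 6.5 was already there at day 3.5 was asked with the CD144 arrays of both days, (ET minus NET) less the same difference at day 3.5, in which the day 2.5 arrays cancel. Of all genes 0.572% were higher and 0.759% lower by this test. The 356 probe sets that passed became 36 with a robust prior. Without single arrays they ranged from 93 (without replicate 1 of the CD144 negative cells of day 3.5) to 1104 (without replicate 1 of NET), and were 95 to 184 without the other NET array, replicate 1 of ET, replicate 2 of the CD144 positive cells of day 3.5 or replicate 2 of the CD144 negative cells of that day. In the endothelial surface list 1 of 40 was higher and 39 did not pass, the median was 0.34, and Tie1 and Cd34 were at 0.44 (SE 0.48, adjusted p = 0.78) and 0.64 (SE 0.34, adjusted p = 0.48). In the pluripotency list 10 of 25 were lower, with a median of -1.42, and the sort difference of Dnmt3l was -2.22 relative to day 3.5 (SE 0.34, adjusted p = 0.0049), opposite in sign to its interaction. Its mean signal was 550 in CD144 positive cells of day 3.5 and 333 in ET, and 162 in CD144 negative cells of day 3.5 and 453 in NET. Fcer1g (7.35, adjusted p = 0.0028), Alox5ap (1.35, adjusted p = 0.037) and Cd52, a leukocyte surface glycoprotein chosen after its values were seen, had a higher sort difference at day 6.5 than at day 3.5. That of Myl7 was higher by 1.57 (adjusted p = 0.0076), against its interaction, and those of Mixl1, Cer1 and Hbb-y were lower, at -1.72, -1.93 and -2.85. Of the 711 genes with a higher interaction 28 were higher and 24 lower in this comparison, and of the 603 with a lower interaction 15 were higher and 43 lower. The comparisons share the arrays of day 6.5.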

How the data were processed

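RNA of 8 sorted populations, 2 arrays each, was measured on Mouse Genome 430 2.0 arrays. The authors deposited MAS5 signal intensity values per probe set, which have been scaled to the same trimmed mean on each array, so overall RNA amount is not retained and no read depth applies. The duplicates came from 2 separately conducted experiments. Here, log2(intensity + 6.02), the offset being the 10th percentile of all values, was fitted with limma 3.58.1 (R 4.3.3) as 8 group means over all 16 arrays (8 residual degrees of freedom, mean-variance trend), with Benjamini-Hochberg adjustment over 45037 probe sets and a threshold of 0.05. The 64 control probe sets were left out. Of the probe sets, 34945 had 1 gene symbol, 932 several and 9160 none in the platform annotation. A gene is shown by its probe set of highest mean. Where a gene had several probe sets, the others did not always pass. For example, 2 of 5 were called for Mef2c, 1 of 2 for Cdkn1a, and 2 of 3 for Plek and Id2.

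Named genes were Kdr and Cdh5, 20 genes of the study, the 8 genes with the largest interaction in each direction that were bright and called without any single array, and up to 3 called members of each of 21 gene lists plus the strongest in the other direction. The members and lists were chosen with earlier results of these data known. Alternatives were quantile normalization, offsets of 1 and 32, a floor of 32, leaving out dim probe sets, fitting 8 arrays, a block for the replicate number, a robust prior in place of the trend, array weights, each gene's most variable probe set, and leaving out each array. Same-numbered arrays did not deviate together (correlations from -0.012 to 0.036). The fit was also run on simulated data with the same spread in all groups. The spread of these arrays differed between groups, so that run does not test the calls made here. Figures were drawn with matplotlib 3.10.9 in Python 3.11.15.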

Additional observations from a re-analysis of the deposited data

Results flagged for a closer look

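For 34 named genes the change from day 2.5 to day 6.5 passed the test in both sorts with opposite signs, and the difference itself passed as the interaction (limma, adjusted p below 0.05). Interactions on the log2 scale are given in brackets, and no explanation was tested.

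Rising in the positive and falling in the negative sorts were the endothelial genes Thsd1 (6.01), Cd34 (5.34), Tie1 (5.05), Myct1 (4.77), Pecam1 (4.53), Edn1 (4.42), Erg (4.03), Cldn5 (3.51), Klf2 (3.33), Cdh5 (3.31) and Robo4 (2.71). The leukocyte genes Alox5ap (5.23) and Laptm5 (4.69) and the growth factor gene Igf1 (5.03) did so too. Genes of other lists with this pattern were Dnmt3l (3.53), Gdf3 (3.46), Mfng (3.41), Col18a1 (3.28), Gadd45a (3.19), Myh6 (2.93), Sfrp2 (2.13), Pdk1 (1.74) and Blvrb (1.48).

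Falling in the positive and rising in the negative sorts were the mesoderm and signaling genes Cer1 (-5.90), Cyp26a1 (-5.01), Bmp2 (-4.42), Bmper (-4.19), Frzb (-3.55) and Aplnr (-3.22), and the cardiac genes Myl7 (-5.24) and Gata4 (-2.49). Egr3 (-3.99), S100a10 (-1.92) and Egln3 (-1.20) also had this pattern.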

How the results depend on the processing

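With 2 arrays a group, counts depended on how the spread was estimated and on which probe sets were tested. With a robust prior, 941 probe sets were called in place of 2181, 609 higher and 332 lower, 47 list members were lower in place of 74, and 36 probe sets passed in the comparison of day 6.5 with day 3.5 in place of 356. Without dim probe sets, only those with a mean above the median were tested, so these counts come from fewer probe sets. The 90% interval then lay beyond 2-fold for 1097 in place of 1780, while 2737 were called by adjusted p in place of 2181. In that setting 546 passed against day 3.5, and a floor of 32 gave 771. Leaving out 1 array gave 964 to 2314 calls, 550 to 1316 higher and 405 to 998 lower, 1456 to 2240 beyond the bound, 78 to 108 list members higher and 49 to 67 lower, and 93 to 1104 against day 3.5. The lowest call counts, 973 and 964, were without VEGF-R2 negative replicate 1 and 2. The cause was not tested.

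The replicate numbers are not stated to pair arrays. A replicate block gave 2271 calls, 1296 higher and 975 lower, and 422 against day 3.5, and of 94 named genes 93 kept their side of the threshold and 1 gained a call.

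Among named genes only the uncalled Sox11, Nr2f2 and Anxa2 reversed in any alternative run. Sox11 (0.08) was at -0.0398 with quantile normalization and -0.026 by its most variable probe set, and leaving out an array gave -0.13 to 0.28. Nr2f2 (-0.56) was at 2.37 by that probe set, and leaving out an array gave -1.34 to 0.21. Anxa2 (-0.05) ranged from -0.30 to 0.19 when an array was left out. With the robust prior 15 of 94 named genes lost their call.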
